A study of Mus musculus with 12 samples.

Results

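The baseline described here is the gastrocnemius, the large calf muscle, of mice that had received a control virus alone. It rests on the 3 arrays titled NC shRNA, out of 12 arrays in the series, and takes them by themselves with no comparison between groups. Each array held 1 signal for each of 25206 probe sets, the groups of short probes that read 1 gene each, and 23185 of these carried 1 gene symbol and are described below. The animals, numbered 18, 19 and 20, were obtained at 12 weeks of age and were of the strain BKS.Cg-Dock7m +/+ Leprdb/J, which carries the db mutation of Lepr, the leptin receptor gene. Mice with both copies of that gene mutated lack leptin signalling and become obese and diabetic, and the labels name the strain without giving the Lepr genotype of an animal. Each control animal had received adenovirus coding for a control short hairpin RNA (shRNA), a kind of RNA that directs the degradation of a matching transcript, and was killed 1 week later. The other 9 arrays, 3 each from animals given LCN13 shRNA, TSC22D4 shRNA or TSC22D4+LCN13 shRNA at the same total dose of virus (filled up with control virus where 1 gene was targeted), were used only to give a spread within groups to set beside that of the control arrays. No animal of the series was without virus or without the db strain background, so the levels are those of virus-treated diabetic-strain muscle and not of untouched muscle. The submitters placed on arrays 3 animals of the 7 in each group, which they describe as representative, and how they were picked was not stated in the labels.

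Skeletal muscle is made mostly of long multinucleate fibres packed with sarcomeres, in which myosin motors pull on actin filaments when calcium reaches the troponin switch. Calcium is released from and returned to the sarcoplasmic reticulum, and the ATP spent in both steps comes from phosphocreatine, glycogen, glucose and fatty acids. Many of these proteins exist as paralogues, products of related genes of which 1 is used in fast fibres and another in slow fibres, in the heart or in other tissues. Gastrocnemius of the mouse is known as a largely fast muscle with a slow portion. A sample of it also holds blood vessels, connective tissue, nerve endings, tendon, fat and blood, and in such a bulk sample fewer cells of a type and less RNA per cell cannot be told apart.

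Signals are given on the log2 scale, on which a step of 1 means a factor of 2 in signal. Where 3 values are given in a row they belong to animals 18, 19 and 20 in that order, and a ± value is the SD over these 3 arrays. Levels of the control arrays ran from 4.78 to 14.09, and the median of the named probe sets was 5.48. A background level was set from genes that muscle does not use, the 1389 probe sets of odorant, vomeronasal and bitter taste receptors. Their median was 4.93, and their 95th percentile, 5.26, was taken as the background level. A signal is not a number of transcripts, because each probe set binds its transcript with its own strength, so a rank below is a rank of signal and a difference between paralogues is a difference of signal. The limit shows in genes that every cell uses: of 18 measured cytosolic ribosomal protein genes 8 lay at or below the background level. Rpl4 read 12.74, 12.73 and 12.65 while Rpl10 read 4.88, 4.87 and 4.88. These ribosomal protein genes show that a low signal here is no measure of a low transcript level. Eef1a1, a translation elongation factor of most tissues, also read low, 5.08 on average, but its paralogue Eef1a2 averaged 12.60. Whether that gap is one of probes or of transcripts was not tested. At the upper end the highest values of all arrays were made nearly equal by the normalization, which also limits how far the strongest genes can differ between arrays.

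Of the 23185 named probe sets 14203, or 61.3%, had a mean above the background level. Levels above 8 were reached by 4266 named probe sets, above 10 by 1479, above 12 by 247, above 13 by 64 and above 14 by 2. Pearson's r across the named probe sets, which are not independent of one another, was 0.996 between animals 18 and 19, 0.997 between 18 and 20 and 0.998 between 19 and 20. The 40 probe sets of highest mean all lay at or above 13.23, and 36 of them were among the 40 highest on every array, while 44 probe sets were among the 40 highest on at least 1 array. The 41st, Ldha, a lactate dehydrogenase chain, averaged 13.23 as well, so the lower edge of this list has no gap.

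The strongest signals belonged to the machinery of contraction and of its fuel. Among the 40 highest were 14 sarcomere genes, 6 genes of calcium handling, 8 of energy metabolism and 12 others, by textbook role. Eno3, the muscle enolase of glycolysis, was first at 14.09, 14.05 and 14.05, followed by Acta1, skeletal alpha-actin, at 14.05, 14.01 and 14.09. The ranges of these genes overlapped, so their order is not settled. Myh4, the myosin heavy chain of the fastest (type IIb) fibres, read 14.01, 13.94 and 14.01, and Atp2a1, the calcium pump of the fast reticulum, 13.98, 13.97 and 13.97. Rn7sk, the small nuclear RNA that holds back transcription elongation, averaged 13.95 and was the only one of the first 5 that encodes no protein. Next came Tnnc2 (fast troponin C), Neb (nebulin, the thin filament scaffold), Ckm (muscle creatine kinase), Actn3 (the fast alpha-actinin of the Z-disc) and Ndufs7 (a subunit of respiratory complex I), at means between 13.88 and 13.86.

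**Figure D1:**
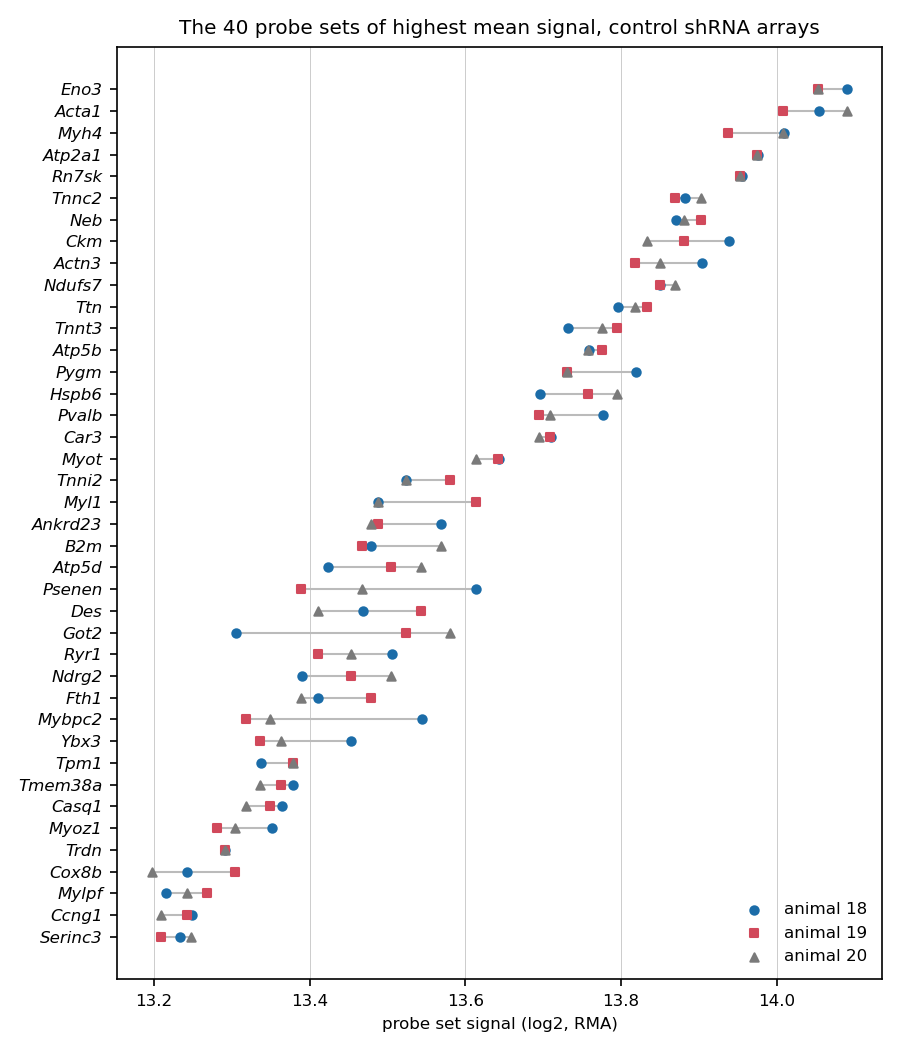
Signal of the 40 probe sets of highest mean on the 3 control arrays; the x axis is log2 signal, each marker is 1 animal and the grey line joins the lowest and the highest array. All lie between 13.20 and 14.09, and the widest range is that of Got2, from 13.31 on the array of animal 18 to 13.58 on that of animal 20.

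Ttn, titin, the giant spring of the sarcomere, and Tnnt3, fast troponin T, followed at 13.82 and 13.77. The other sarcomere genes of the 40 were Myot (myotilin), Tnni2 (fast troponin I), Myl1 (a fast essential light chain), Mybpc2 (the fast myosin-binding protein C), Tpm1 (alpha-tropomyosin), Myoz1 (a Z-disc binder of calcineurin) and Mylpf (the fast regulatory light chain), with means from 13.63 down to 13.24. Calcium handling was represented by Pvalb, the calcium buffer parvalbumin, at 13.73, the release channel Ryr1 at 13.46, the reticulum channel Tmem38a at 13.36, the store buffer Casq1 at 13.34 and the junction protein Trdn at 13.29. Pygm, the muscle glycogen phosphorylase, read 13.82, 13.73 and 13.73. Atp5b and Atp5d, both of the ATP synthase, averaged 13.76 and 13.49, and Cox8b, of cytochrome c oxidase, 13.25. Got2, the mitochondrial aspartate aminotransferase, had the largest SD of the 40, with 13.31, 13.52 and 13.58. The array of animal 18 was the low one there.

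The 12 others were of mixed roles. Car3, a carbonic anhydrase of muscle and fat, read 13.71, 13.71 and 13.70, and Hspb6, a small heat shock protein, 13.70, 13.76 and 13.79. Des, the intermediate filament desmin, averaged 13.47, and Ankrd23, a titin-binding ankyrin repeat protein, 13.51. B2m, the light chain of MHC class I, averaged 13.50, and Fth1, the ferritin heavy chain, 13.43. Psenen, a subunit of gamma-secretase, read 13.61, 13.39 and 13.47. Ndrg2, Ybx3, Ccng1 and Serinc3 completed the list, at 13.45, 13.38, 13.23 and 13.23.

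How paralogues stood to one another was described for 80 families, chosen from the sarcomere, the membrane systems, transport and metabolism. A few of these are sets of partner subunits or of one signalling chain rather than paralogues in the strict sense. Of 344 listed members 315 were measured under a single symbol. Of those, 271 lay above the background level, against 61.3% of all named probe sets. In 78 families at least 2 members were measured. In 75 of the 78 the leading member was separate from the next, meaning that its lowest array lay above the highest array of the next member. The leading difference had a median of 2.03 and ran from 0.07, between Neb and Ttn, to 8.50, between Eno3 and Eno2. Its SD over the 3 arrays had a median of 0.13 and at most 0.60. The widest difference is one to Eno2 because Eno1 was not among the measured enolases. In 54 families the leading member was among the 500 highest named probe sets, and in 35 among the 100 highest. In 9 families the next member lay at or below the background level, so the difference there mostly measures the height of the leading member.

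**Figure D2:**
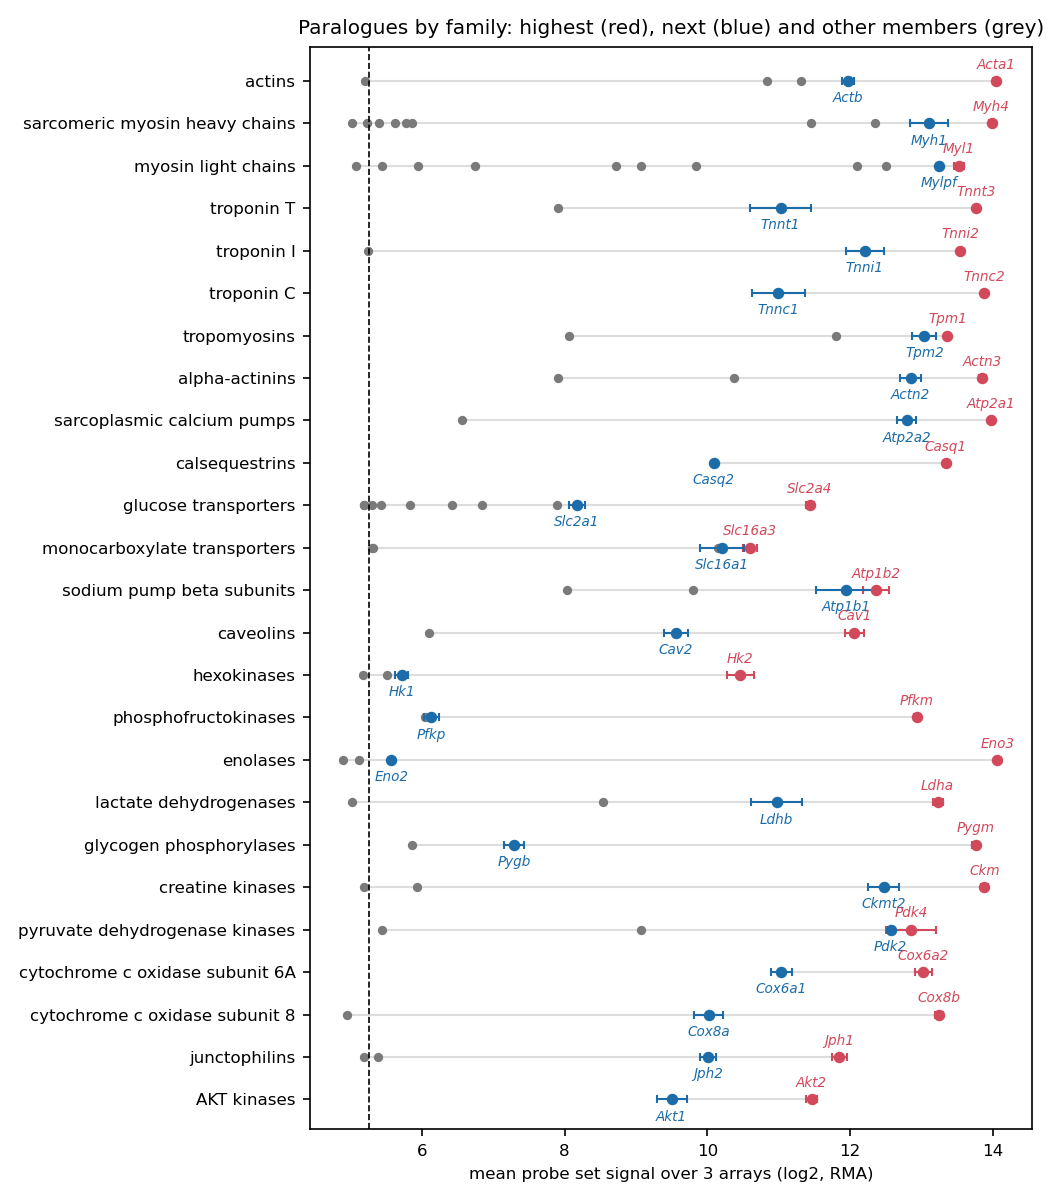
Mean signal of the measured members of 25 of the 80 families, with the x axis in log2 signal; the highest member is red, the next blue, both with the SD over 3 arrays, the others are grey and the dashed line is the background level. Red and blue lie apart for Eno3 and Eno2 (8.50) and for Pfkm and Pfkp (6.80), and their ranges overlap for Atp1b2 and Atp1b1 and for Pdk4 and Pdk2.

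Actins build the thin filament of the sarcomere and the cytoskeleton of all cells. Acta1 led the measured actins by 2.17, 1.97 and 2.09 over Actb, cytoplasmic beta-actin, at 11.88, 12.04 and 12.00. Actc1, the cardiac alpha-actin that skeletal muscle uses mainly before birth, read 11.12, 11.30 and 11.52. Acta2, the smooth muscle alpha-actin of vessel walls, read 10.46, 11.12 and 10.94. The ranges of Actc1 and Acta2 did not stay apart over all arrays, although Actc1 was the higher on each, by 0.47 ± 0.26. Actg2, the enteric smooth muscle actin, averaged 5.20, below the background level. The promoters of the highest and of the cardiac sarcomeric actin are shown because these genes encode nearly the same protein and stood 2.74 ± 0.19 apart here. Each run is the 250 bases before the start that RefSeq annotates in the mouse build GRCm38.p6, on the strand of the gene. Capitals mark a CArG box (the site motif of serum response factor), CAGCTG (an E-box letter pattern) and TATAAA, each searched on both strands.
Acta1, chr8:123894776-123895025, minus strand: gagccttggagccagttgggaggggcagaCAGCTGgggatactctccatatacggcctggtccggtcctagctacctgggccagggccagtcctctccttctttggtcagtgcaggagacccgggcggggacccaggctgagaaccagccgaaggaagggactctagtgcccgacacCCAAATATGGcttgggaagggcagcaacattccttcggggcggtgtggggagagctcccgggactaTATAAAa
Actc1, chr2:114052876-114053125, minus strand: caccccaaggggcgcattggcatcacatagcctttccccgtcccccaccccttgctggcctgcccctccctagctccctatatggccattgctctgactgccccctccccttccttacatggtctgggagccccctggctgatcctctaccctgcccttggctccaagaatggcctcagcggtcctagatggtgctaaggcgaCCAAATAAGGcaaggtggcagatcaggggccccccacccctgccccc
The Acta1 window held CAGCTG 221 bases, a CArG box 73 bases and TATAAA 7 bases before the start, and the Actc1 window a CArG box 47 bases before it. A CArG box stood in 1.3% of the 21141 windows of named genes.

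Sarcomeric myosin heavy chains are the motors that set a fibre's speed. All 10 listed members were measured, and the 4 adult skeletal forms stood far above the rest. Myh4 averaged 13.98 and Myh1, the type IIx form, read 12.81, 13.25 and 13.27. Myh2, the type IIa form, read 12.00, 12.48 and 12.57, and Myh7, the slow form shared with the heart, 11.11, 11.79 and 11.48. Each step in this order was separate, by 0.88 ± 0.28, 0.76 ± 0.06 and 0.89 ± 0.20. Myh7b, Myh6, Myh3 and Myh8 lay between 5.86 and 5.39, and Myh13 and Myh15 at or below the background level. Myh3 and Myh8 are the embryonic and perinatal forms, and Myh13 is known from eye muscle. Of these genes 6 lie side by side on chromosome 11 in the RefSeq annotation, in the order Myh3, Myh2, Myh1, Myh4, Myh8 and Myh13, with no other protein-coding gene between them. Signal along that row averaged 5.63, 12.35, 13.11, 13.98, 5.39 and 5.23. The 3 high genes were thus neighbours, and both ends of the row were near the background level.

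The windows before Myh4 and Myh1, the highest myosin genes and direct neighbours, are shown for the letters they share. Capitals mark a MEF2 box (the site motif of the MEF2 factors of muscle), a CArG box, CAGCTG and TATAAA.
Myh4, chr11:67237562-67237811, plus strand: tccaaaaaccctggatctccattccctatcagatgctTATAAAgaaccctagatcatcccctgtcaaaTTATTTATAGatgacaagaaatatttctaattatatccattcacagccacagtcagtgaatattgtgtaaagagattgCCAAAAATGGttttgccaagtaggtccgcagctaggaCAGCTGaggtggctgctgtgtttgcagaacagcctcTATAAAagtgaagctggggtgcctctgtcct
Myh1, chr11:67199852-67200101, plus strand: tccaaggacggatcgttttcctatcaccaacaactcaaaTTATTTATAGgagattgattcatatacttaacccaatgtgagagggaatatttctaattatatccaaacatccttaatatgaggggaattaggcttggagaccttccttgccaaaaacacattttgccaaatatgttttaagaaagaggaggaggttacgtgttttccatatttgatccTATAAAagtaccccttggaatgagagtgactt
Both windows held a MEF2 box, 182 bases before the start of Myh4 and 211 before that of Myh1, and TATAAA overlapped that box in each. Both also held TATAAA near the start, 31 and 32 bases before it. The Myh4 window had in addition another TATAAA at 213, a CArG box at 104 and CAGCTG at 67 bases before the start.

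The same motifs were counted over all windows that matched a named gene, 21141 windows of 17452 genes, as a description. Of the 100 highest named probe sets 76 had a window, 97 in all. CAGCTG stood in 26.8% of those windows, against 12.7% of the windows of all named genes. A MEF2 box stood in 8.2% against 2.4%, and TATAAA in 15.5% against 11.1%. In the 486 windows of the highest 500 the shares were 18.3% for CAGCTG, 3.5% for a MEF2 box and 8.8% for TATAAA, so the higher share of TATAAA did not extend to that set and that of the MEF2 box was near the 3.6% of genes at or below background. Among 7243 windows of genes at or below the background level 18.6% held TATAAA. Windows of the same gene overlap in part and are not independent. A motif match is a letter match and shows no binding.

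Light chains and troponins gave the same order of fast over slow members. Myl1 led the light chains, 0.29 ± 0.05 above Mylpf, and Myl3 and Myl2, the slow and cardiac light chains, followed at 12.50 ± 0.21 and 12.10 ± 0.29. Mylk4 and Mylk2, kinases related to or acting on the regulatory light chain in striated muscle, averaged 13.07 and 12.62, while Mylk, the smooth muscle enzyme, averaged 6.67. Fast troponin T, Tnnt3, lay 2.74 ± 0.40 above the slow Tnnt1. Fast troponin C, Tnnc2, lay 2.89 ± 0.38 above the slow Tnnc1, and fast troponin I, Tnni2, 1.33 ± 0.24 above the slow Tnni1. The cardiac forms Tnnt2 and Tnni3 averaged 7.90 and 5.25. Tropomyosins were closer together, with Tpm1 0.32 ± 0.15 above Tpm2.

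At the Z-disc, the anchor of the thin filaments, Actn3 lay 1.01 ± 0.19 above Actn2 and Myoz1 0.85 ± 0.21 above Myoz2. Myom1 and Myom2, which tie thick filaments together at the M-band, were 0.13 ± 0.08 apart. Flnc, the muscle filamin, read 11.61, 11.93 and 12.02, 2.30 above Flna. At the membrane, Dmd (dystrophin) averaged 11.22 and its relative Utrn 8.84. The sarcoglycan Sgca averaged 12.10, while Sgcb and Sgcd, at 10.31 and 10.28, overlapped. Caveolins stood in another order than their known use in fibres: Cav1, known from endothelium and fat, read 11.91, 12.14 and 12.13, whereas Cav3, the muscle caveolin, read 6.10, 6.13 and 6.08. How well either probe set binds was not tested.

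Differences between a fast and a slow member can be compared across animals, since the same probe sets were read on each array. Over 10 such pairs of sarcomere and calcium store genes the mean difference was 2.01 for animal 18, 1.57 for animal 19 and 1.81 for animal 20. It was largest in animal 18 for 9 of 10 pairs and smallest in animal 19 for 9 of 10. Myh4 minus Myh7 was 2.90, 2.15 and 2.53, and Tnnt3 minus Tnnt1 was 3.16, 2.36 and 2.70. Casq1 minus Casq2 was the exception in size, at 3.25 on each array. The slow-fibre list holds most of the slow members of these pairs, so its counts are largely the same observation and not a second one. Of its 10 measured genes 9 were lowest in animal 18 and 8 highest in animal 19. Of all named probe sets above background 33.7% were lowest in animal 18 and 33.2% highest in animal 19. The fast-fibre list averaged 13.58, 13.60 and 13.59 and the slow-fibre list 10.93, 11.40 and 11.12. Over the other 9 arrays the slow-fibre genes had a median within-group SD of 0.22, against 0.25 on the control arrays. For 8 of these 10 genes the SD on the control arrays was the larger. Only this spread within groups is available beside the 3 animals, and no test of the difference between single animals was possible.

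In calcium handling the members known from skeletal muscle mostly had the higher signal. Ryr1, the release channel, averaged 13.46, while Ryr2, the cardiac channel, and Ryr3 were below the background level. Cacna1s, the voltage sensor that opens Ryr1, averaged 12.83, and the cardiac Cacna1c 5.92. Atp2a1 lay 1.18 ± 0.14 above Atp2a2, the slow and cardiac pump. The small pump regulators Mrln and Sln could not be ordered: Mrln read 9.74, 9.30 and 9.44 and Sln 9.43, 9.17 and 9.65. Pln, the regulator known from heart and slow fibres, read 6.27, 7.19 and 6.62 and was the most variable of the 3. Jph1 and Jph2, which hold the triad membranes together, were 1.84 ± 0.05 apart.

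Several families of membrane transport were led by members known from muscle. Slc2a4, the insulin-regulated glucose transporter, read 11.39, 11.50 and 11.43, and lay 3.26 ± 0.14 above Slc2a1, the general glucose transporter. Of 10 measured glucose transporters 8 were above the background level, against 61.3% of all named probe sets. Slc2a2 and Slc2a5, known from liver and intestine, were not. Among lactate transporters Slc16a3, which exports lactate, read 10.71, 10.54 and 10.55. Slc16a1, which takes it up in oxidative fibres, read 9.86, 10.36 and 10.41. They were 0.86, 0.18 and 0.13 apart, so the gap was widest in animal 18. The beta subunits of the sodium pump also had overlapping ranges, with Atp1b2 at 12.56, 12.21 and 12.32 and Atp1b1 at 11.46, 12.25 and 12.14. Of 5 listed voltage-gated sodium channels 3 were measured, led by Scn3a at a mean of 5.44, and the muscle channel Scn4a was not analysed here. Clcn1, the chloride channel that keeps resting fibres electrically quiet, averaged 10.90, and lay 1.81 ± 0.07 above Clcn4.

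Fatty acid uptake was read through several families. Slc27a1 averaged 9.82 and lay 3.73 ± 0.19 above Slc27a4, both of them fatty acid transport proteins. Of 6 measured fatty acid binding proteins, which do not include the muscle form Fabp3, Fabp4, the carrier of adipocytes and endothelium, was the highest at 12.42, 12.15 and 12.34. Fabp7 followed 6.83 lower, near the background level. Plin4 and Plin2, coats of lipid droplets, averaged 10.70 and 9.13. Plin5, the perilipin of oxidative tissue, read 6.59, 6.37 and 7.00. Acacb, the acetyl-CoA carboxylase that makes the malonyl-CoA restraining fatty acid oxidation in muscle, lay 3.43 ± 0.42 above Acaca, the lipogenic form. Ucp3, the muscle uncoupling protein, read 9.88, 8.78 and 9.40, against a pooled SD of 0.07 within the other groups.

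In glycolysis and glycogen use the signal of the muscle form was mostly far above the next. Eno3, Pfkm, Pgam2 and Hk2 lay above their next measured paralogue by 8.50 ± 0.06, 6.80 ± 0.12, 5.77 ± 0.13 and 4.75 ± 0.12. These enzymes are the muscle forms of enolase, phosphofructokinase, phosphoglycerate mutase and hexokinase. The 4 measured enolases, of 5 listed, did not include Eno1, so how Eno3 stood to it is not known here. Pygm lay 6.47 ± 0.19 above the brain form Pygb, while Gys1, the muscle glycogen synthase, was measured above background and its liver form Gys2 was not. Aldoa, the muscle aldolase, read only 8.15, 8.18 and 8.21, and Pgk1 only 8.12 on average. Both serve the same pathway as Eno3, and the difference in signal says nothing of their amounts. Ldha lay above Ldhb, the heart chain, by 2.72, 1.98 and 2.07. Pfkfb3, which makes the activator of phosphofructokinase, averaged 11.21, 4.45 above Pfkfb2. Where both members lay above the background level, subtracting the median signal of the receptor probe sets moved the leading difference by a median of 0.03 over 69 families. It widened it by more than 1 in 7, among them Aldoa and Aldoc from 2.88 to 4.90 and Eno3 and Eno2 from 8.50 to 9.97, because the weaker member was close to the background level.

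The phosphate buffers of contraction followed the same order. Ckm averaged 13.88, Ckmt2 (the mitochondrial form of striated muscle) read 12.23, 12.58 and 12.61, and Ckb, the brain form, averaged 5.92. Ak1, the cytosolic adenylate kinase, lay 3.13 ± 0.03 above Ak3, and Ampd1, the muscle AMP deaminase, 5.03 ± 0.29 above Ampd3. Pyruvate dehydrogenase kinases, which hold back the oxidation of pyruvate and rise in fasting and diabetes, gave 2 strong members with overlapping ranges. Pdk4 read 13.20, 12.49 and 12.88 and Pdk2 12.61, 12.56 and 12.54. Pdk4 was lower than Pdk2 in animal 19, and its SD of 0.35 stands beside a pooled SD of 0.09 in the other groups. Pdp1, the opposing phosphatase, read 10.07, 10.71 and 10.61.

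Many nuclear genes of the mitochondrion gave strong signals, and some lay near the background level. Among isoforms of cytochrome c oxidase the heart and muscle forms led. Cox6a2 lay 1.99 ± 0.10 above Cox6a1, Cox7a1 2.63 ± 0.12 above Cox7a2 and Cox8b 3.23 ± 0.17 above Cox8a. Slc25a4, the muscle translocase that trades ADP for ATP, averaged 12.99 with an SD of 0.01, and Vdac1, the outer membrane pore, 13.21. All 15 measured citric acid cycle genes were above the background level, with a median of 12.16 and 10 of them among the 500 highest. Of all named probe sets 61.3% lay above that level. The lists of complex I (15 of 16 above background, median 11.40) and of complexes III, IV and V (15 of 16, median 11.51) had members at very different heights. Ndufv2 averaged 12.90 and Ndufb3, of the same complex, 4.90. None of the 15 listed genes of the mitochondrial genome was measured under its symbol. All 16 genes of fatty acid oxidation lay above the background level, with a median of 11.36, from Hadh at 12.77 to Etfa at 9.39. Mb, myoglobin, the oxygen store of fibres, read 13.03, 13.26 and 13.28.

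Signalling genes sat lower. Of 20 measured genes of insulin signalling and glucose uptake all were above the background level, with a median of 9.83. Of all named probe sets 61.3% lay above that level. Rab10, a small GTPase of transporter vesicles, averaged 12.43. Akt2, the insulin-responsive kinase of muscle, averaged 11.46 and lay 1.96 ± 0.24 above Akt1. The receptor Insr read 9.69, 9.71 and 9.71, with an SD of 0.01. Irs1, its docking protein, read 8.96, 7.90 and 8.29 and was the most variable member, high in animal 18, while Irs2 averaged 7.66. Among AMPK subunits, the cell's energy sensor, Prkaa2, Prkab2 and Prkag3 led their kinds at 12.28, 11.40 and 11.07. Prkag1 followed Prkag3 by 0.29, and Prkaa1 and Prkab1 averaged 8.97 and 7.70. Ppargc1a, the coactivator that drives mitochondrial genes, averaged 10.35, and Nos1, the nitric oxide synthase of muscle, 8.42.

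All 19 measured genes of muscle atrophy lay above the background level, against 61.3% of all named probe sets, with a median of 9.63. Fbxo32 and Trim63, the ubiquitin ligases known as atrogin-1 and MuRF1, read 12.17, 11.31 and 11.73 and 11.08, 10.75 and 10.71. Mstn, myostatin, the restraint on muscle growth, read 11.36, 10.81 and 10.83. All 3 genes were highest in animal 18, but of the whole list of 19 only 9 were, against 37.1% of all named probe sets above background. Of the list 4 were highest in animal 19 and 6 in animal 20, and 5 were lowest in animal 18. Of 19 myokines and other secreted factors 15 were above background. Dcn, the proteoglycan decorin, led at 13.07, and Il6, Bdnf, Fgf21 and Apln were at or below the background level.

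Marker lists were read for the signal of fibres and of other cells. Of all named probe sets 61.3% lay above the background level, and those had a median of 6.53. All 13 fast-fibre markers were among the 100 highest named probe sets, with a median of 13.54. Myh2, the fast type IIa form, was not on that list and ranked 170 at 12.35. The 10 slow-fibre markers had a median of 11.78, with Myh7b low at 5.86. Apart from Myh7b, the listed markers of the labelled tissue were thus present and strong. All 15 endothelial markers, all 12 of pericytes and smooth muscle and 12 of 13 of fibroblasts lay above the background level, with medians of 8.41, 8.42 and 8.76. Cdh5, the endothelial cadherin, averaged 11.04, and Rgs5, of pericytes, 11.93. Of 12 macrophage markers 11 were above background, with a median of 6.71. Satellite cell and junction lists, 11 of 11 each, had medians of 6.15 and 6.87. These medians and that of the macrophage list lay near the 6.53 of all named probe sets above background. Pax7, the stem cell factor of muscle, read 5.93, 5.98 and 6.16.

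**Figure D3:**
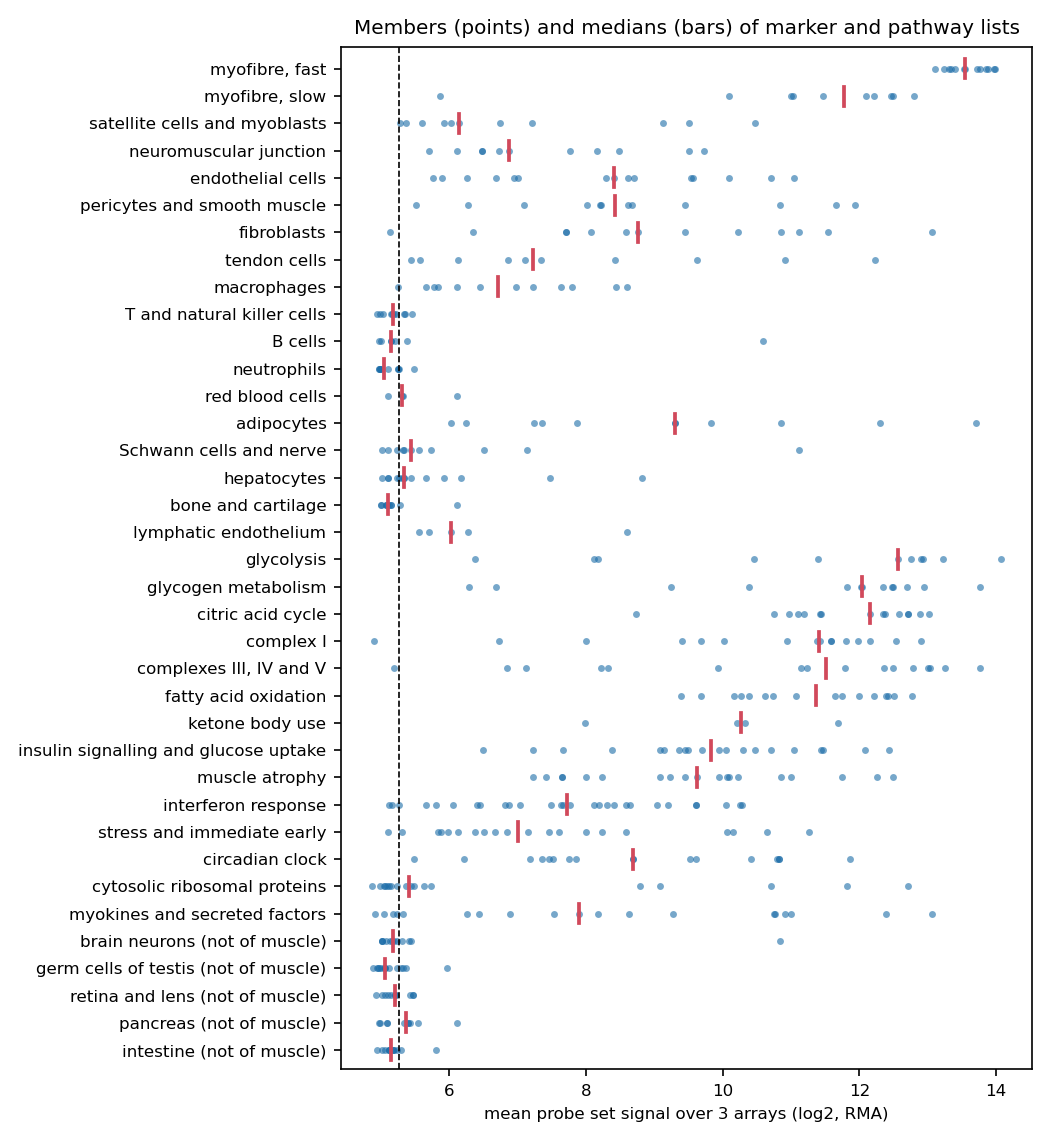
Mean signal of the measured members of each marker and pathway list (points) and the median of the list (red bar), in log2 units on the x axis; the dashed line is the background level. The fast-fibre list has its lowest member at 13.11, and most members of the 5 lists of genes not of muscle lie near the line.

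Fat markers were clearly present. All 11 measured adipocyte genes were above the background level, against 61.3% of all named probe sets, with a median of 9.30. Lep, leptin, the hormone of fat cells, read 11.15, 10.50 and 10.93, within the highest 5% of named probe sets, and Cidec, a lipid droplet protein, 10.08, 9.45 and 9.97. Retn, resistin, read 9.53, 8.99 and 9.39 and Adipoq, adiponectin, 7.42, 7.03 and 7.27. These 4 genes were lowest in animal 19 and highest in animal 18. Of the whole list 7 were lowest in animal 19 and 8 highest in animal 18, against 34.7% and 37.1% of all named probe sets above background, while Pparg (7.74, 7.96 and 7.92) and Thrsp (6.02, 6.42 and 6.28) ran the other way. Car3 and Fabp4 of the same list are also made by other cells of muscle. Whether the fat lay within the muscle or was attached to it was not tested.

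Most markers of lymphocytes and neutrophils were at the background level. Of all named probe sets 61.3% lay above it, but of the T and natural killer cell list only 3 of 10. Of the neutrophil list 2 of 10 lay above it, and of the bone and cartilage list 2 of 10. Of the B cell list 2 of 7 did, and Ighm, the heavy chain of IgM, was the high one at 10.22, 10.74 and 10.79, while Cd79a, Ms4a1 and Cr2 were below the background level. Of 4 red cell markers 3 had a mean above the background level. Alas2, the heme synthesis enzyme of red cells, read 6.52, 5.84 and 5.98. Hbb-b1, a beta-globin, read 5.86, 5.06 and 5.04, so it passed the background level in animal 18 alone. Lists of genes not of muscle gave 4 of 12 above background for brain, 4 of 14 for testis, 3 of 11 for retina and lens, 6 of 10 for pancreas and 2 of 12 for intestine. Their medians lay between 5.06 and 5.36. The exception in height was Camk2a in the brain list, at 10.91, 10.82 and 10.79, a kinase gene that muscle also transcribes. By construction 5% of the receptor probe sets exceed the level, and the share was larger in each of these lists of genes not of muscle. A signal above the level is therefore no proof of use by muscle, and single low genes just above it carry little weight.

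The spread among the 3 animals was small for most genes. Of the 14203 named probe sets above background 9034, or 63.6%, had an SD below 0.1, 359 (2.53%) had one above 0.3 and 59 (0.415%) one above 0.5. The median SD was 0.08, against a median pooled SD of 0.10 within the other 3 groups. The SD depended on the level: its median was 0.05 between the background level and 6, 0.11 between 7 and 8 and 0.04 above 13. At the top this follows in part from the normalization, which gives the same rank nearly the same value on each array. Trdn, for example, read 13.2917, 13.2910 and 13.2910, and Atp2a1 and Rn7sk had SDs of 0.001. Further genes with the smallest SD among the 500 highest were Pde4dip, Nap1l4, Slc25a4, Car3, Zdhhc5, Atp5b and the pseudogene Pdcd5-ps, all below 0.01.

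Animals 18 and 19 were the ones that differed. Among the 59 probe sets with an SD above 0.5 the array of animal 19 stood apart from the other two in 29, that of animal 18 in 25 and that of animal 20 in 5. Without animal 20 the SD of the other two passed 0.5 for 129 probe sets, and without animal 18 or 19 for 54 or 46. More than 1 apart were 44 probe sets between animals 18 and 19, 14 between 18 and 20 and 23 between 19 and 20. Of the 59 probe sets 14 also had a pooled SD above 0.5 in the other groups, where 53 did. For 22 of the 25 named genes of largest SD the pooled SD of the other groups was also above its own 95th percentile of 0.24.

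**Figure D4:**
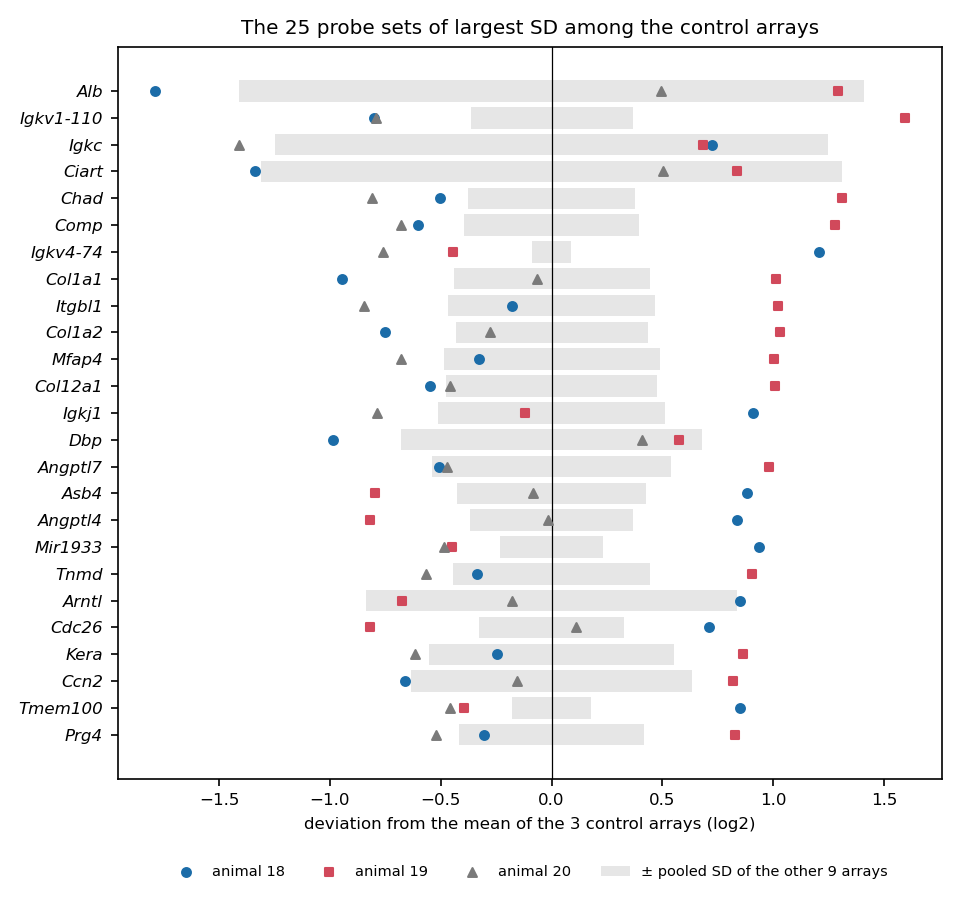
Deviation of each control array from the mean of the 3 arrays, in log2 units on the x axis, for the 25 named genes of largest SD; markers are animals, and the grey bar spans 1 pooled SD of the other 9 arrays to either side. Tendon list genes such as Chad and Comp have animal 19 at the right, and Alb, Ciart and Dbp have animal 18 at the left.

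Of the tendon list 4 genes were among these 25. Chad (chondroadherin) read 9.13, 10.94 and 8.82, and Comp (cartilage oligomeric matrix protein) 6.26, 8.14 and 6.18. Tnmd, the tendon protein tenomodulin, read 8.08, 9.32 and 7.85, and Kera (keratocan) 7.09, 8.20 and 6.72. In each the array of animal 19 was the high one. Col1a1 and Col1a2, the chains of type I collagen, read 9.28, 11.24 and 10.16 and 8.69, 10.48 and 9.17. They are of the fibroblast list, which did not share this order. Of its 13 measured genes 4 were highest in animal 19, 7 in animal 20 and 2 in animal 18, and 5 were lowest in animal 19. Itgbl1, Mfap4, Col12a1, Angptl7, Ccn2 and Prg4, in none of the lists, had the array of animal 19 highest. All 10 markers of the tendon list were highest in animal 19, as were 33.2% of all named probe sets above background, and the list averaged 7.72, 8.60 and 7.57. The slow-fibre list was also highest in this animal. Whether more tendon was taken with that muscle was not tested.

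Clock genes set animal 18 apart. Ciart and Dbp, both driven by the core clock, read 7.35, 9.53 and 9.19 and 8.54, 10.10 and 9.94. Arntl, the core activator that peaks at the opposite time of day, read 8.60, 7.07 and 7.57. Per1 and Per2, the repressors, read 9.88, 10.72 and 10.64 and 6.71, 7.50 and 7.33, and Npas2 read 5.86, 5.31 and 5.27. Of the 17 clock genes measured 13 were lowest in animal 18, against 33.7% of all named probe sets above background. The 4 highest there were Clock, Arntl, Nfil3 and Npas2, against 37.1% of those probe sets. Nr1d1, a repressor of Arntl, was nearly level at 11.80, 11.88 and 11.92. The clock list varied as much in the other groups, with a median pooled SD of 0.34 against 0.32. The labels do not state the hour at which each animal was killed.

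Several genes of fuel use had a large spread, with animals 18 and 19 at the ends for most. Angptl4, an inhibitor of lipoprotein lipase that fasting and fatty acids induce, read 8.24, 6.59 and 7.39. The following genes were added after their values were seen. Klf10 read 8.83, 7.65 and 7.66 and Ppp1r3c, a glycogen-targeting subunit, 12.91, 12.26 and 12.27. Lipogenic genes were lowest in animal 18: Fasn, fatty acid synthase, read 8.33, 9.52 and 9.14, Scd2 7.85, 8.93 and 8.74, Mid1ip1 6.56, 7.87 and 7.70 and Acaca 7.06, 7.82 and 7.42. Srebf1, a transcription factor of lipogenesis, was nearly level at 6.68, 6.76 and 6.75. Of the 16 genes of fatty acid oxidation 15 were lowest in animal 18, by little: the list averaged 11.13, 11.27 and 11.34. Of all named probe sets above background 33.7% were lowest on that array. The labels name an unrestricted diet and no feeding state at death.

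**Figure D5:**
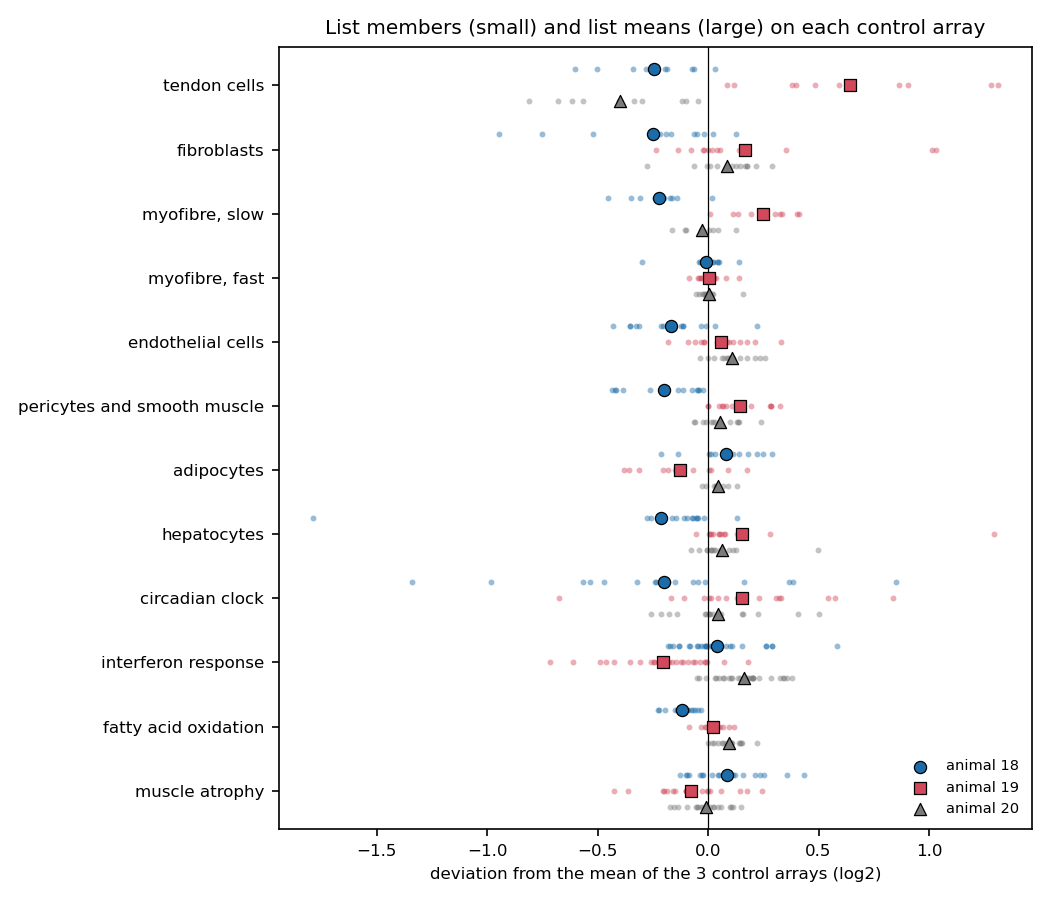
Deviation from the mean of the 3 control arrays, in log2 units on the x axis, of the members of 12 lists (small points) and of the list as a whole (large markers), with blue for animal 18, red for 19 and grey for 20. The tendon list spans from -0.40 to 0.64, the fast-fibre list from -0.01 to 0.01.

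Transcripts of liver and of antibody-producing cells varied as well. Alb, albumin, had the largest SD of all named genes above background, 1.60, with 7.04, 10.12 and 9.32, and a pooled SD of 1.41 in the other groups. Of the 14 hepatocyte markers 10 were above the background level, against 61.3% of all named probe sets. In animal 18, 13 of the 14 were lowest, against 33.7% of all named probe sets above background. Cyp2e1 was highest there, at 7.61, 7.42 and 7.40. Most of the 14 were close to background, among them Apoa1 at 5.67, 6.06 and 6.05 and Ttr at 5.39, 5.95 and 5.66. Igkc, the kappa light chain constant region, read 9.29, 9.25 and 7.16, low in animal 20, and Igkj1 9.47, 8.44 and 7.77. Igkv4-74, a variable segment, was high in animal 18 alone, at 7.32, 5.67 and 5.36. Another kappa variable segment, the second of all named genes by SD, was high in animal 19 alone, at 4.84, 7.23 and 4.85. Probe sets of such segments can also bind related segments.

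Of 28 measured interferon-responsive genes 25 lay above background, against 61.3% of all named probe sets, and the list had a median of 7.72. Xaf1, Rsad2 and Irf7 were the highest, with Rsad2, viperin, at 10.57, 9.67 and 10.61. Usp18, which removes the ubiquitin-like ISG15, was the most variable, at 8.70, 7.40 and 8.25, while the pooled SD in the other groups was 0.08. Of the 28 genes 21 were lowest in animal 19 and 20 were highest in animal 20, against 34.7% and 29.7% of all named probe sets above background. The list averaged 7.74, 7.49 and 7.86. All control animals carried adenovirus, and no array without it stands beside these values. Among the 25 genes of largest SD were also Asb4 at 8.31, 6.63 and 7.34, Tmem100 at 8.35, 7.10 and 7.04, Cdc26 at 8.69, 7.17 and 8.09, and the microRNA gene Mir1933 at 9.74, 8.36 and 8.32. Tmem100 and Mir1933 were high in animal 18 alone, and Cdc26 was low in animal 19.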

How the data were processed

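RNA of gastrocnemius was hybridised to Affymetrix mouse arrays. The authors deposited 1 table of log2 values for the 12 arrays, made with RMA (background correction, quantile normalization and probe summary) per the submitters' processing notes. The RMA version: not given in the sources used here. Deposited values were used unchanged. Gene names come from the platform annotation: 23185 of 25206 probe sets had 1 symbol, and the other 2021 were left out. Columns were matched to samples by title. Means, SDs and ranks were computed over the 3 control arrays with Python 3.11.15, numpy 2.4.6 and pandas 2.3.3, with scripts tested on simulated data. The pooled SD of the other 9 arrays has 6 degrees of freedom. Named were the 40 highest probe sets, members of part of the families, and part of the listed genes. Also named were all but 1 of the 25 genes of largest SD, and that 1 is given without its symbol. The leading and next members of the remaining families entered the counts only. The families, lists and rules were chosen with earlier results of these data known. No test was run. The number of arrays limits the precision. Alternatives were another summary, background level, probe set selection, centring and each array left out.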

Additional observations from a re-analysis of the deposited data

How the results depend on the processing

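No paired analysis was possible because no groups were compared. Of the 40 highest probe sets 37 to 40 were kept with medians, with unnamed probe sets included, with centred arrays or with any array left out. The count above the background level, 14203, moved to 9268 with the 99th percentile of the receptors as the level, since that level is higher. It was 14041 to 14099 with an array left out. Leading family members were separate in 75 families, and in 74 to 77 with an array left out. The count with an SD above 0.5, 59, was 46 to 129 with an array left out, the highest without animal 20. Signal over background limits the weaker paralogues, and 3 animals limit every SD.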

Other observations

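Probe sets of receptors that muscle is not known to use reached 8.32, 8.03 and 8.23 for Vmn2r29, a vomeronasal receptor, on the arrays of animals 18, 19 and 20. Of the 1389 receptor probe sets 70 lay above the background level, as its definition sets. Of the 2021 probe sets without a single gene name 1004 lay above it. Genes of plasma cells were added after the immunoglobulin values were seen. Jchain and Tnfrsf17 averaged 5.01 and 5.06, below the background level of 5.26, and Mzb1 and Irf4 5.36 and 5.38, just above it. Xbp1, Sdc1 and Prdm1, which other cells use too, averaged 10.93, 6.15 and 5.81.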
